A study of Mus musculus with 8 samples.

Results

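Bone marrow erythroblasts of mice carrying JAK2V617F/+ were compared between libraries labelled Plek2-/- and libraries labelled Plek2+/+, over autosomal genes and on raw read counts. The comparison used 4 of the 8 libraries of the series, 2 for each label, and 11787 autosomal genes that passed a filter on low counts, of 23337 genes in the table. All animals were C57BL/6 and 4 months old, and both labels carry the mutant Jak2 allele over 1 normal allele, so no library shows erythroblasts without it. Erythroblasts were taken as TER119-positive bone marrow cells. The other 4 libraries, of Kit-positive cells from the lineage-negative fraction (called progenitors), enter only where the effect of the label is compared between populations. Whether replicate libraries are separate animals is not stated, so each p-value measures the spread between these samples, which may be technical.

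JAK2 is the kinase that carries the erythropoietin signal into red cell precursors, and its V617F form signals without the hormone and drives polycythemia vera. Pleckstrin-2, the product of Plek2, binds membrane phosphoinositides and takes part in actin organisation and in the loss of the nucleus during late erythroid maturation. An erythroblast makes haemoglobin, builds a spectrin-based membrane skeleton and clears its organelles. TER119 sits on cells of the red lineage, while granulocytes, lymphocytes and macrophages are bound to or mixed with erythroblasts in the marrow and can enter such a preparation.

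Library totals ran from 16760897 to 21168532 counts, and a count of 0 allows a level of up to 0.142 to 0.179 CPM (counts scaled to library size, from 3 counts, counting error only). The erythroid identity of the libraries was plain: the anion exchanger gene Slc4a1 stood at 9360 to 11200 CPM and the transferrin receptor gene Tfrc at 8140 to 9000 CPM in the 4 libraries, although Hba-a1 and Hbb-b1, adult globin symbols, were listed at 0. Plek2 (chromosome 12, 78888691 to 78906964, minus strand, GRCm38) had 1770 and 1894 reads in the libraries labelled Plek2+/+ and 616 and 781 in those labelled Plek2-/-. It was lower in both Plek2-/- libraries (log2 fold change -1.21, SE 0.11, edgeR quasi-likelihood adjusted p = 9.92e-05) but not absent, and in progenitors it went against the label (log2 2.47, edgeR adjusted p = 0.00253). The labels are therefore used as names of libraries throughout. Xist and Y-linked genes gave a female pattern in every library labelled Plek2+/+ and a male pattern in every library labelled Plek2-/-, so that effects of sex and of Plek2 cannot be told apart. Autosomal genes were used for this reason, which does not remove effects of sex on autosomes.

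Most autosomal genes that differed were lower in the libraries labelled Plek2-/-. Of 11787 autosomal genes, 336 passed the edgeR quasi-likelihood test at a Benjamini-Hochberg adjusted p below 0.05 (2.85% of those tested). Of these, 318 fell (2.7%) and 18 rose (0.153%). The change exceeded 2-fold in 30 falls and 5 rises. Both Plek2-/- libraries lay above both Plek2+/+ libraries in 22.9% of all autosomal genes tested, and below them in 23.1%. Where the labels are said below not to overlap, this is a description to be read beside these shares. It was also a condition for naming the rises and the largest falls. The neutrophil and primary granule lists (51 genes tested) held 28 called genes, which left 308 outside them, 290 lower and 18 higher. Both lists are short, and genes outside them, such as Ncf4, Itgam and Plaur, are also made by neutrophils. A list of genes of any kind held 108 called genes, and 228 stood in no list. In bulk RNA, fewer cells of a type and less RNA per cell cannot be told apart.

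A fit without 1 library leaves 1 library under that label, so lost power and the weight of the library left out cannot be told apart. The number of calls changed with the library left out. Without replicate 1 labelled Plek2-/- it was 963, and without replicate 2 of that label 109. It was 28 without replicate 1 and 19 without replicate 2 labelled Plek2+/+. The calls of 12 genes held whichever library was left out: Igj and Lgmn, which rose, and Plek2, Dhrs7, Epx, Rag1, Spib, Fam129c, Ccdc88c, Reln, Ifitm6 and Lcn2, which fell. For every other gene described as called here, at least 1 of those 4 fits did not call it.

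The erythroid programme served as the reference, and it lay close to 0 after scaling between libraries. That scaling places the bulk of genes near 0, so a shift common to most genes could not show. Over 9 lists of red cell genes, 174 unique autosomal genes were tested. Their median log2 fold change was 0.03 with quartiles of -0.08 and 0.11, beside a median of 0.0094 over all autosomal genes tested. By edgeR none rose and 6 fell, or 3.45% against the 2.85% over all genes, and 7 lay more than 1.5-fold from equality. The typical 95% confidence interval of a member reached 0.23 log2 units to each side, which is the precision of the statement for a single gene. With 1 library left out, each of 8 lists had 0 to 2 calls, and the Epo receptor and JAK2-STAT5 list had 1 to 6.

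The abundant red cell genes had near-equal values under both labels. Spectrin alpha, Spna1, the backbone of the membrane skeleton, stood at 3020 and 3640 CPM in Plek2+/+ libraries and 3170 and 3420 CPM in Plek2-/- libraries. The ranges overlapped (log2 -0.02, SE 0.13, edgeR adjusted p = 0.977). Slc4a1 was measured at 9360 and 10700 against 10100 and 11200 CPM, again overlapping (log2 0.09, SE 0.15, edgeR adjusted p = 0.85). None of the 12 membrane skeleton genes was called by edgeR, DESeq2 or limma-voom, and 2 had an unadjusted p below 0.05. Ferrochelatase, Fech, which puts iron into heme, had 1810 and 2050 against 1990 and 2040 CPM, overlapping (log2 0.06, SE 0.12).

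Iron genes leaned upward without a call. The list of 18 had a median of 0.11, with 15 positive values and 4 genes at an unadjusted p below 0.05. EdgeR and limma-voom called 0 and DESeq2 called 1. The transferrin receptor gene Tfrc, the iron entry of the erythroblast, stood at 8140 and 8540 against 8240 and 9000 CPM (log2 0.05, SE 0.14). The ferritin heavy chain gene Fth1, which stores iron, stood at 623 and 664 against 756 and 873 CPM (log2 0.34, SE 0.11, edgeR adjusted p = 0.132). Erythroferrone, listed as Fam132b, the erythroblast hormone that lowers hepcidin, stood at 97.7 and 98.6 against 111 and 131 CPM (log2 0.30, SE 0.10, edgeR adjusted p = 0.136). In Fth1 and Fam132b both Plek2-/- libraries lay above both Plek2+/+ libraries, as they did for 22.9% of all autosomal genes tested, and neither passed the test.

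Transcription factors of the lineage gave a median of 0.0042 over 21 genes, whose sign changed with the scaling. EdgeR, DESeq2 and limma-voom each called 0, and 1 gene had an unadjusted p below 0.05. Klf1, a master regulator of globin and membrane genes, stood at 470 and 570 against 492 and 542 CPM (log2 -0.0084, SE 0.11). E2f2, a cell cycle factor of terminal erythropoiesis, stood at 991 and 1060 against 942 and 1170 CPM (log2 0.04, SE 0.12). Genes of late maturation and organelle clearance had a median of 0.02 over 30, also with a sign that changed with the scaling. EdgeR and limma-voom called 0 of them, DESeq2 called 1, and 2 had an unadjusted p below 0.05. Non-muscle myosin heavy chain, Myh9, had 1050 and 1070 against 856 and 838 CPM, with no overlap and no call (log2 -0.32, SE 0.10, edgeR adjusted p = 0.126).

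Globin counts came almost wholly from the symbol Beta-s, the adult beta chain. It stood at 58800 and 62700 CPM in Plek2+/+ and 51800 and 46300 CPM in Plek2-/- libraries. Both Plek2-/- libraries were lower, though the gene did not pass the edgeR test (log2 -0.31, SE 0.19, edgeR adjusted p = 0.489). DESeq2 called it lower and limma-voom did not, so the tools differ on this gene. Near-identical globin copies share reads, and the authors' handling of such reads is not given in the sources used here, so this value is uncertain. The globin symbols together took 6% and 6.13% of counts against 5.23% and 4.58%.

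The 6 erythroid-list genes that fell were Plek2, Alas1, Cd36, Stat3, Ptpn6 and Glrx, and none of the other five is specific to the red lineage. Alas1, the housekeeping counterpart of the erythroid aminolevulinate synthase, had 73.6 and 81.9 against 51.2 and 50 CPM (log2 -0.62, SE 0.10, edgeR adjusted p = 0.00815). The scavenger receptor gene Cd36 had 422 and 467 against 347 and 288 CPM (log2 -0.49, SE 0.11, edgeR adjusted p = 0.0354). Both Plek2-/- libraries lay below both Plek2+/+ libraries in either gene, as they did for 23.1% of all autosomal genes tested. Stat3, a signal transducer of cytokine receptors, fell by 0.46 on the log2 scale. Ptpn6, the phosphatase that shuts off the Epo receptor and also acts throughout white cells, fell by 0.37. Epor itself stood at 179 and 187 against 163 and 192 CPM (log2 -0.04, SE 0.10), and the STAT5 target Cish at 26.4 and 27.5 against 30.1 and 30.9 CPM (log2 0.18, SE 0.11, edgeR adjusted p = 0.471).

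**Figure D1:**
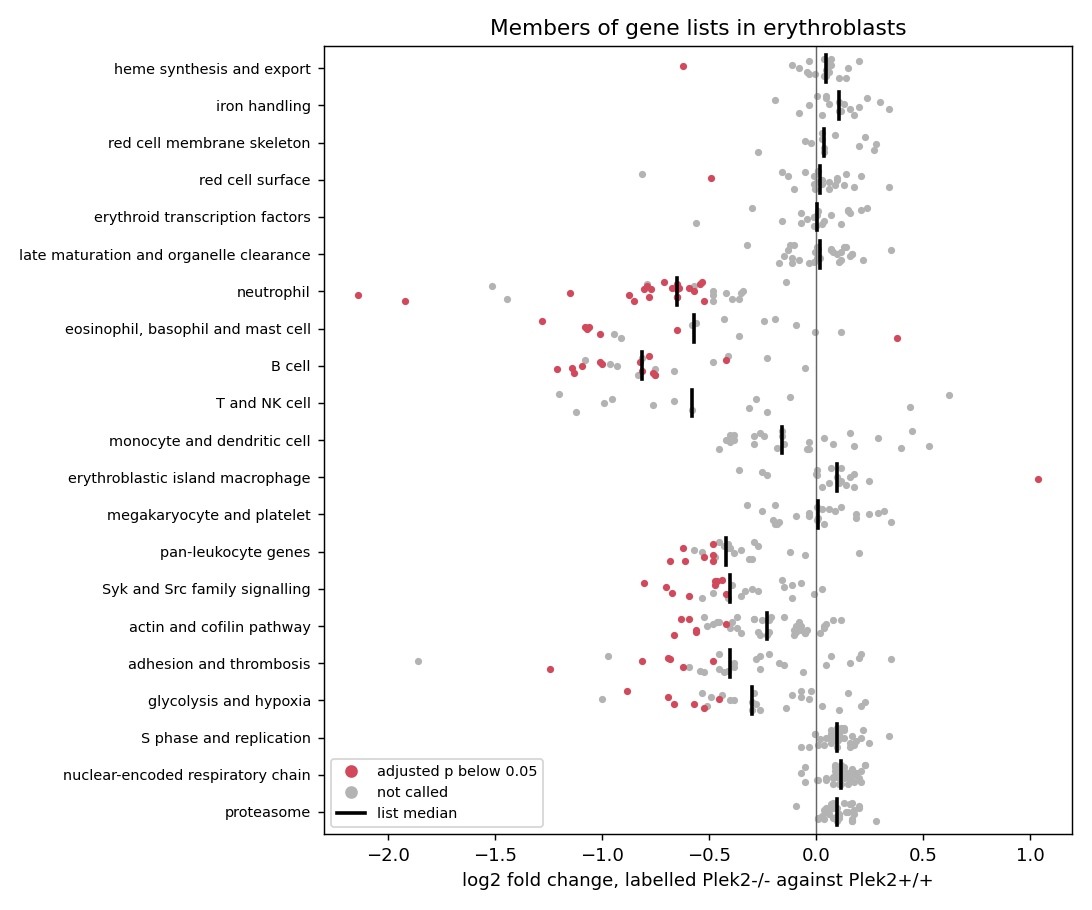
Log2 fold change (horizontal axis) of every tested autosomal member of 21 gene lists (rows); red points passed the edgeR test, grey points did not, and black bars mark list medians. The red cell lists centre near 0 with 2 called points in the 6 lists drawn, while the B cell list centres at -0.81 and the neutrophil list at -0.65.

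The 18 rises were few and mixed in kind. The largest was Igj (chromosome 5, 88519809 to 88527891, minus strand, GRCm38), the joining chain of secreted antibodies, at 11.8 and 16.3 CPM in Plek2+/+ and 43.1 and 54.2 CPM in Plek2-/- libraries. Both Plek2-/- libraries lay well above both others (3.47-fold, log2 1.80, SE 0.15, edgeR adjusted p = 8.14e-05). Igj was the 1 rise among 11 plasma cell genes. Among the other plasma cell genes, Sdc1, the surface marker of plasma cells, had a log2 fold change of -0.04 (SE 0.23). Xbp1, the factor of the secretory programme, had -0.14 (SE 0.09), and Irf4 fell by 0.85 on the log2 scale (edgeR adjusted p = 0.0142). The plasma cell list had a median of -0.37, with 9 of 11 values negative and 18.2% called, beside 2.85% over all genes. Both Plek2-/- libraries lay below both Plek2+/+ libraries in 5 of the 11 genes and above them in 1. The summed share of the list, which includes Igj, was 0.0255% and 0.0245% of counts against 0.0255% and 0.0244%.

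Single genes of the stress response and of growth arrest, Chac1 and Cdkn1a, were among the rises, while the medians of their lists were 0.12 and 0.02. Chac1, an enzyme that degrades glutathione and is a target of ATF4, had 19.7 and 9.73 against 28.5 and 34.8 CPM (log2 1.10, SE 0.23, edgeR adjusted p = 0.0266). Its Plek2+/+ libraries lay far apart, though the labels did not overlap. Cdkn1a, the p21 inhibitor of cyclin-dependent kinases, had 6.25 and 5.32 against 9.69 and 12.2 CPM (log2 0.92, SE 0.18, edgeR adjusted p = 0.0216). Ccng1, another target of p53, had 150 and 133 against 176 and 184 CPM without passing the test (log2 0.35, SE 0.09, edgeR adjusted p = 0.0736). Mdm2, the p53 target that restrains p53, stood at 0.05 (SE 0.09). The whole p53 and BCL2 list of 32 had 1 rise and 2 falls (9.38% called, beside 2.85% over all genes). The falls were Fas and Bmf, both promoters of cell death, by 1.01 and 0.78 on the log2 scale. The list median of 0.02 changed sign with the scaling.

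The integrated stress response and amino acid supply list had Chac1 as its 1 call among 43 (DESeq2 called 0 and limma-voom 1). That is 2.33%, beside 2.85% over all genes. Its median was 0.12 with 33 positive values, and 9 members had an unadjusted p below 0.05. Among them the arginine transporter gene Slc7a1 had 126 and 122 against 150 and 160 CPM (log2 0.32, SE 0.09, edgeR adjusted p = 0.0797). The cysteinyl-tRNA synthetase gene Cars had 132 and 128 against 161 and 161 CPM (log2 0.30, SE 0.09, edgeR adjusted p = 0.0907). In both genes both Plek2-/- libraries lay above both Plek2+/+ libraries, as they did for 22.9% of all autosomal genes tested. Neither gene passed the test. Atf4 itself stood at 514 and 495 against 499 and 588 CPM (log2 0.11, SE 0.11), Ddit3 at 0.19 (SE 0.20) and Asns, asparagine synthetase, at -0.11 (SE 0.09), with no call.

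The immediate-early list held 2 rises at low levels (7.69% called, beside 2.85% over all genes). Ptgs2, which starts prostaglandin synthesis, stood at 1.2 and 1.54 against 4.31 and 2.71 CPM (log2 1.35, SE 0.31, edgeR adjusted p = 0.0366). Rgs1, a brake on chemokine receptor signalling, stood at 4.3 and 3.84 against 6.62 and 11.1 CPM (log2 1.12, SE 0.24, edgeR adjusted p = 0.0286). The median of the 26 list members was -0.15. Il1rl1, the interleukin-33 receptor of mast cells, was the 1 rise in the eosinophil, basophil and mast cell list, at 98.5 and 104 against 125 and 138 CPM (log2 0.38, SE 0.09, edgeR adjusted p = 0.0475). Gmpr, GMP reductase of purine salvage, rose by 0.54 on the log2 scale. Tjp1, a scaffold of tight junctions, rose by 0.49, and the MAP kinase kinase gene Map2k3 by 0.38.

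**Figure D2:**
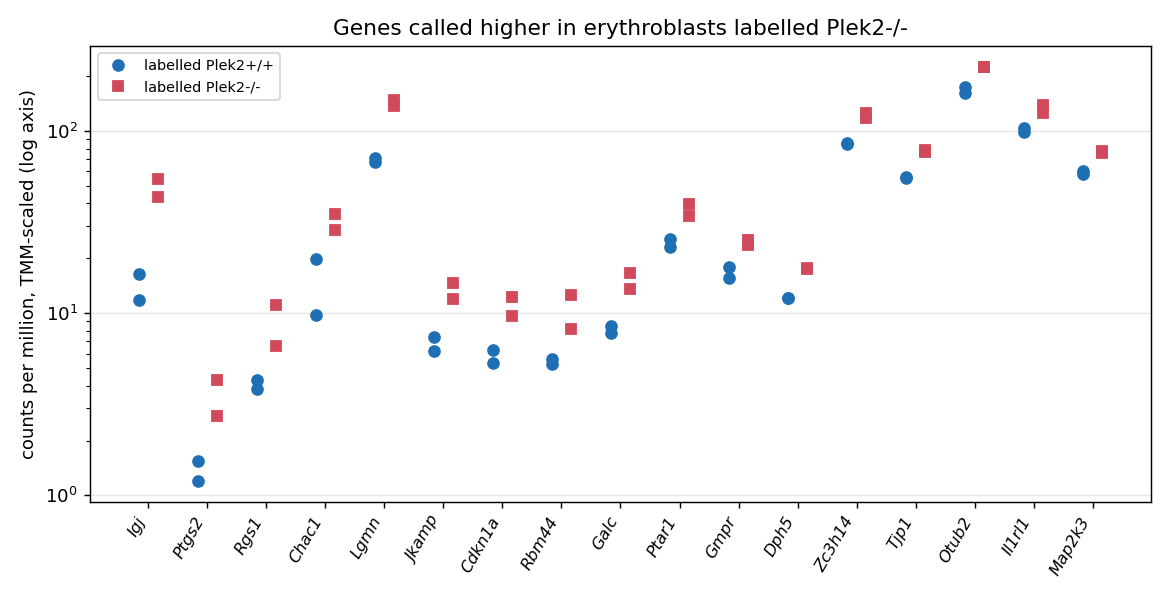
TMM-scaled CPM (vertical log axis) of 17 genes called higher, with each library drawn as a point, blue circles for the label Plek2+/+ and red squares for Plek2-/-. In each gene both red squares lie above both blue circles, and the gap is widest in Igj.

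Chromosome 12, which carries Plek2, held 5 of the 18 rises. Of its 407 tested genes 1.23% rose, against 0.114% of the 11380 genes on other autosomes. Called genes in either direction made up 4.18% and 2.8%. The rises were Jkamp, Galc, Zc3h14, Lgmn and Otub2, at 6.8, 19.3, 19.9, 23.5 and 24.5 megabases from Plek2. Lgmn (102394084 to 102439813, minus strand, GRCm38), a lysosomal cysteine protease, had 67.7 and 71 against 147 and 137 CPM (log2 1.04, SE 0.09, edgeR adjusted p = 8.14e-05). Galc, the lysosomal enzyme that breaks down galactosylceramide, had 7.78 and 8.5 against 16.5 and 13.6 CPM (log2 0.89, SE 0.16, edgeR adjusted p = 0.0138). Jkamp, a membrane protein of endoplasmic reticulum degradation, had 7.41 and 6.2 against 14.7 and 11.9 CPM (log2 0.96, SE 0.17, edgeR adjusted p = 0.0142). The labels did not overlap in any of them.

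Falls on chromosome 12 numbered 12 with Plek2. Dhrs7 (72650353 to 72664909, minus strand), a short-chain dehydrogenase, had 29.8 and 25.9 against 13.6 and 10.1 CPM (log2 -1.24, SE 0.15, edgeR adjusted p = 0.00198) and lies 6.2 megabases from Plek2. Ccdc88c, a Wnt and G protein regulator 22 megabases away, had 208 and 214 against 122 and 135 CPM (log2 -0.71, SE 0.09, edgeR adjusted p = 0.00323). Serpina11, a serpin gene 25.1 megabases away, was chosen for mention after its values were seen. It had 18 and 20 reads under Plek2+/+ and 1 and 0 under Plek2-/-, so its fitted size is not given. In the lysosome list, where Lgmn stands, 33 genes had a median of -0.11. Lgmn was its 1 rise and Man2b1, a lysosomal mannosidase, its 1 fall, by 0.56 on the log2 scale (6.06% called, beside 2.85% over all genes).

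Among markers of other cells, the eosinophil genes fell by most in share of counts. The list of eosinophil, basophil and mast cell genes took 0.202% and 0.226% of counts in Plek2+/+ libraries and 0.138% and 0.0964% in Plek2-/- libraries. The mean share was 45.2% lower, and the labels did not overlap. The exact two-sided permutation test over 2 against 2 libraries cannot go below p = 0.333, which is the value here. Of 18 genes tested, 6 fell and 1 rose (38.9% called, beside 2.85% over all genes), and the median was -0.57.

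Of the 6 falls, 5 were genes of eosinophil granule proteins. Prg2, the major basic protein, had 1170 and 1410 against 761 and 475 CPM (log2 -1.06, SE 0.18, edgeR adjusted p = 0.0106). Eosinophil peroxidase, Epx (chromosome 11, 87864000 to 87875536, minus strand, GRCm38), had 288 and 328 against 150 and 143 CPM (log2 -1.07, SE 0.10, edgeR adjusted p = 0.00012). The ribonuclease gene Ear6 had 38.6 and 47.2 against 22.6 and 13 CPM (log2 -1.28, SE 0.19, edgeR adjusted p = 0.00768). All 3 genes separated the labels, and in Prg2 and Ear6 replicate 2 labelled Plek2-/- was the lower of its pair. Ear1, Ear6 and other ribonucleases of this family are close copies that may share reads.

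Among basophil and mast cell genes of the list, Hdc, which makes histamine, fell by 0.65 on the log2 scale. The mast cell carboxypeptidase gene Cpa3 had 8.56 and 7.37 against 8.69 and 5.41 CPM (log2 -0.19, SE 0.22). The basophil protease gene Mcpt8 had 17.5 and 20.8 against 21.1 and 17.1 CPM (log2 -0.0057, SE 0.14). The tryptase genes Tpsab1 and Tpsb2 were listed at 0 in all 4 libraries. Neither Cpa3 nor Mcpt8 was called. Left-out libraries moved the list's 6 falls to 10 without replicate 1 labelled Plek2-/-, and to 5, 4 and 1 without Plek2-/- replicate 2, Plek2+/+ replicate 1 and Plek2+/+ replicate 2, and DESeq2 called 3.

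**Figure D3:**
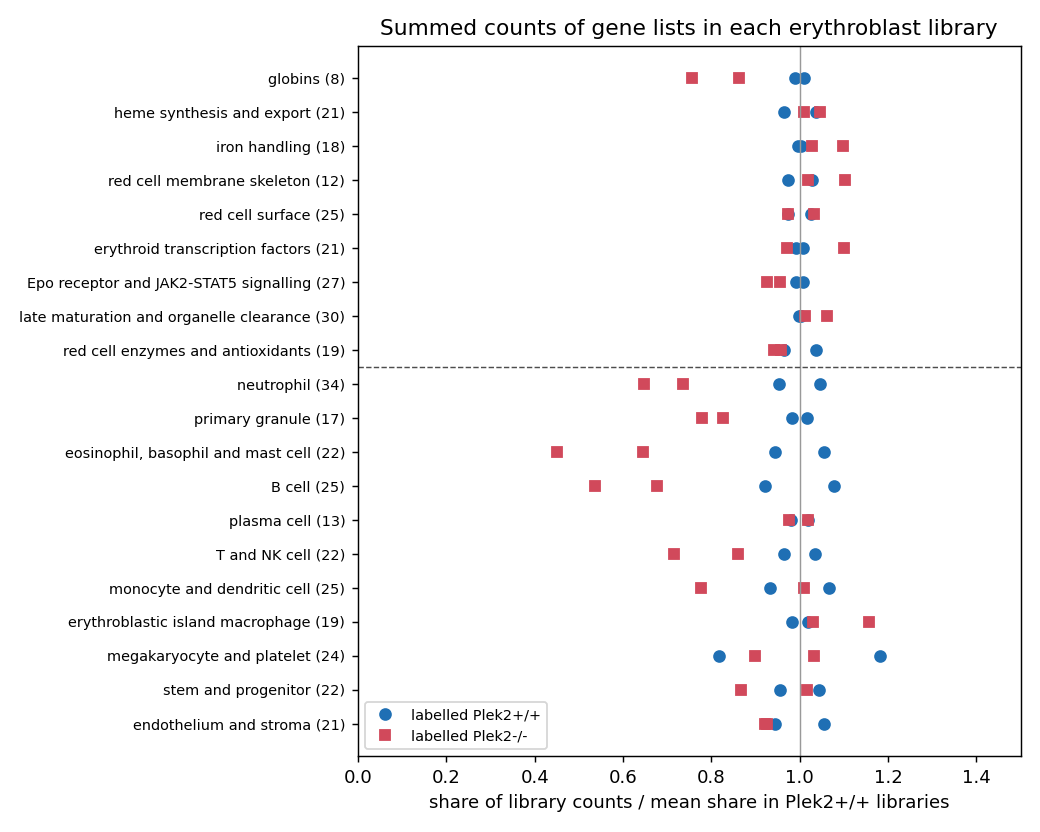
Share of all library counts taken by each gene list, divided by its mean in the libraries labelled Plek2+/+ (horizontal axis, linear from 0); each point is a library and the number of genes is in brackets. Above the dashed line the red cell lists other than globins lie near 1, and below it the eosinophil, B cell and neutrophil lists of the libraries labelled Plek2-/- lie lowest.

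B cell genes had the lowest median of any list, at -0.81 over 24 genes, and all 24 values were negative. EdgeR called 12 lower and 0 higher (50%, beside 2.7% lower over all genes). They took 0.0383% and 0.0328% of counts in Plek2+/+ libraries against 0.0241% and 0.0191% in Plek2-/- libraries. The calls fell to 5, 2 and 3 without Plek2-/- replicate 2, Plek2+/+ replicate 1 and Plek2+/+ replicate 2, and rose to 20 without Plek2-/- replicate 1.

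The called B cell genes spanned stages of the lineage. Rag1 (chromosome 2, 101638282 to 101649501, minus strand, GRCm38), which recombines antigen receptor genes in precursors, had 41.7 and 38.1 against 19.7 and 16.8 CPM (log2 -1.13, SE 0.12, edgeR adjusted p = 0.000472). Spib, a transcription factor of B cells, had 26.6 and 24.9 against 10.2 and 13.1 CPM (log2 -1.14, SE 0.14, edgeR adjusted p = 0.00221). Pou2af1, a coactivator at immunoglobulin promoters, had 22.7 and 20.1 against 11.9 and 8.27 CPM (log2 -1.09, SE 0.17, edgeR adjusted p = 0.00771). These 3 genes had no library of one label within the range of the other. The precursor genes Vpreb3 and Il7r fell by 1.01 and 0.78 on the log2 scale, and the surface marker gene Ms4a1, which encodes CD20, by 0.81.

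Blk and Fam129c stood among the largest falls. Blk, a Src family kinase of B cells, had 9.58 and 8.29 against 4.43 and 3.33 CPM (log2 -1.21, SE 0.20, edgeR adjusted p = 0.0106). Fam129c, known as a B cell gene but in no list here, had 15.7 and 14.4 against 6.74 and 6.82 CPM (log2 -1.15, SE 0.15, edgeR adjusted p = 0.00361). Both were lower in each Plek2-/- library.

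T and NK cell genes had a median of -0.58 over 13, at levels of 14.3 CPM or less. EdgeR, DESeq2 and limma-voom each called 0, and 3 had an unadjusted p below 0.05. The summed share was 0.0039% and 0.00418% against 0.00348% and 0.00289%. Lck, the kinase of the T cell receptor, had 11.9 and 14.3 against 12.6 and 11.6 CPM, which overlapped.

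The erythroblastic island macrophage is the cell around which erythroblasts mature. Of its 19 genes, 16 had positive values with a median of 0.10, and Lgmn was the 1 call (5.26%, beside 2.85% over all genes). The median was 0.00052 without Plek2-/- replicate 1, and 3 members were then called lower. Vcam1, which holds erythroblasts to the macrophage, had 274 and 271 against 335 and 276 CPM (log2 0.16, SE 0.11). The complement genes C1qa and C1qb stood at 0.0026 and 0.25 with SE 0.09 each. The list took 0.169% and 0.163% of counts against 0.192% and 0.171%. This sum includes Lgmn, at 67.7 and 71 against 147 and 137 CPM.

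Monocyte and dendritic cell genes had a median of -0.16 over 25 (edgeR called 0, 7 had an unadjusted p below 0.05, 1 higher and 2 lower by DESeq2, 1 lower by limma-voom). Megakaryocyte and platelet genes had a median of 0.0092 over 24, with a sign that changed with the scaling (0 called by edgeR, DESeq2 or limma-voom, 1 at an unadjusted p below 0.05). Stem and progenitor genes had a median of -0.28 over 20 (edgeR called 0, 6 had an unadjusted p below 0.05, 1 lower by either other tool). The neutrophil and primary granule lists, given here only for scale, had medians of -0.65 and -0.36. Of their genes 21 of 34 and 7 of 17 were lower (61.8% and 41.2%, beside 2.7% over all genes). Neutrophil calls became 27 and 7 without Plek2-/- replicates 1 and 2, 7 and 2 without Plek2+/+ replicates 1 and 2, and 11 in the fit of all 8 libraries. Primary granule calls became 11 and 2 without Plek2-/- replicates 1 and 2, and 1 and 0 without Plek2+/+ replicates 1 and 2. The neutrophil list took 1.84% and 2.02% of counts against 1.42% and 1.25%. Of the 11 lists of other cells, 6 took a smaller share of counts in both Plek2-/- libraries: neutrophil, primary granule, eosinophil, B cell, T and NK cell, and endothelium and stroma.

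Genes shared by white blood cells fell beside these markers. Of 24 pan-leukocyte genes 7 fell and 0 rose (29.2%, beside 2.7% lower over all genes), and the median was -0.42. Sfpi1, which encodes PU.1, the transcription factor of myeloid and B cells, had 42.5 and 45.2 against 31.6 and 26 CPM (log2 -0.61, SE 0.11, edgeR adjusted p = 0.0176). Itgam, the CD11b integrin of myeloid cells, had 295 and 322 against 234 and 168 CPM (log2 -0.62, SE 0.13, edgeR adjusted p = 0.0286). Itgal and Itgb2, the chains of the LFA-1 integrin, fell by 0.68 and 0.48 on the log2 scale. The labels did not overlap in these genes. Without Plek2-/- replicate 2 the list had 1 call, without either Plek2+/+ library 0, and without Plek2-/- replicate 1 it had 18.

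Signalling by Syk and Src family kinases gave 9 falls and 0 rises among 24 genes (37.5%, beside 2.7% lower over all genes). The median was -0.40. Plcg2, the phospholipase downstream of Syk and Btk, had 88.9 and 87.1 against 60.6 and 48.1 CPM (log2 -0.70, SE 0.11, edgeR adjusted p = 0.0095). Dok3, an adaptor that restrains such signals, had 45.3 and 47.2 against 32.4 and 25.9 CPM (log2 -0.67, SE 0.12, edgeR adjusted p = 0.0135). The myeloid Src family kinase gene Fgr fell by 0.44 on the log2 scale, and Prkcb, protein kinase C beta, by 0.42. Both Plek2-/- libraries were lower in each. The count was 2 without Plek2-/- replicate 2, 0 without either Plek2+/+ library and 12 without Plek2-/- replicate 1.

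Actin genes belong to the machinery on which pleckstrin-2 acts, and some of them fell. The actin list held 6 falls and 0 rises among 43 genes (14%, beside 2.7% lower over all genes), with a median of -0.23. Coro1a, a coronin of white blood cells, had 412 and 441 against 315 and 235 CPM (log2 -0.63, SE 0.13, edgeR adjusted p = 0.0215). Gsn, the filament-severing gelsolin, had 115 and 126 against 91.8 and 72.2 CPM (log2 -0.56, SE 0.11, edgeR adjusted p = 0.023). Capg, Arpc1b, Vasp and Vim, which cap, branch, extend or brace the cytoskeleton, fell by 0.66, 0.56, 0.42 and 0.59 on the log2 scale. The actin calls became 0 without Plek2-/- replicate 2 or either Plek2+/+ library and 16 without Plek2-/- replicate 1.

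Regulators of actin in blood cells fell as well. Rac2, the haematopoietic Rac GTPase, had 161 and 162 against 117 and 115 CPM (log2 -0.47, SE 0.09, edgeR adjusted p = 0.0146), with little spread within either label. Dock2, the exchange factor that loads Rac in leukocytes, had 66.9 and 64.9 against 48.2 and 46.4 CPM (log2 -0.48, SE 0.09, edgeR adjusted p = 0.018). Vav1, an exchange factor of blood cells, fell by 0.49 and the inhibitor Arhgdib by 0.48 on the log2 scale. The actin genes of the membrane skeleton, tropomyosin Tpm1 and tropomodulin Tmod1, stood at 0.28 and 0.23 with SE 0.09 and 0.12 and were not called (edgeR adjusted p = 0.127 and 0.405). These falls went together with the lower share of counts of the neutrophil, eosinophil and B cell lists, and the part of those cells in them was not tested.

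Promoter windows were read for the short DNA words of blood transcription factors after the values were known. RefSeq windows (GRCm38.p6, 250 bases before to 50 after a start) matched 239 of the 318 falls, 135 of the 174 erythroid genes and 9234 of all autosomal genes tested. The core word of PU.1 sites, GAGGAAGT on either strand, was present for 8.79% of the falls and 7.8% of those outside the neutrophil and granule lists, against 3.97% of all genes and 1.48% of the erythroid genes. The GATA word AGATAA was present for 8.79% of the falls, 14.8% of the erythroid genes and 7.86% of all. Another 7 words were searched. Their shares follow for the falls, the erythroid genes and all genes in that order. TGATGNAA (ATF4) gave 4.18%, 0.741% and 2.91%, and TGATGNAAT, which contains it, 0, 0 and 0.563%. CCACACCC (KLF1) gave 7.53%, 4.44% and 4.66%, and CCCNNGGG (EBF) 29.7%, 29.6% and 21.2%, so the EBF word was as frequent among erythroid genes as among falls. ATGCAAAT (octamer) gave 2.51%, 0 and 1.49%, the NF-kB word (GGGA, any base, TTTCC) 0.837%, 0.741% and 0.52%, and TTGCGCAA (C/EBP) 0.418%, 0 and 0.347%. These shares are descriptions without a test, and a word in a window is not a bound site.

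The 3 falls with the lowest p outside the neutrophil lists whose window held GAGGAAGT wholly upstream of the annotated gene are shown to make the word visible, followed by Trim10, the most abundant erythroid-list gene with AGATAA under the same condition. Each stretch is the 250 bases before the RefSeq start, 5′ to 3′ on the strand of the gene, in build GRCm38.p6, and capitals mark the word or its reverse complement (ACTTCCTC, TTATCT).
Mapkapk2 (chr1:131097844-131098093, minus strand): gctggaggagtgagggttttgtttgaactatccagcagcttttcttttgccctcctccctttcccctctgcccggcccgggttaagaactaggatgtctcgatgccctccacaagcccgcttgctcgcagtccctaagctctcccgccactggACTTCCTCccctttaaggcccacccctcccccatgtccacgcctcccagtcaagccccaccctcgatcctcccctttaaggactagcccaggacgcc
Vav1 (chr17:57278850-57279099, plus strand): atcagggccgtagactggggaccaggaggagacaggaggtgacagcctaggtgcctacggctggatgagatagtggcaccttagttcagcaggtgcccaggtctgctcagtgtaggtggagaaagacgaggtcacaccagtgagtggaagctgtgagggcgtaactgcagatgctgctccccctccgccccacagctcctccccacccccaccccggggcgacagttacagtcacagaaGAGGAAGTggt
Map3k3 (chr11:106084337-106084586, plus strand): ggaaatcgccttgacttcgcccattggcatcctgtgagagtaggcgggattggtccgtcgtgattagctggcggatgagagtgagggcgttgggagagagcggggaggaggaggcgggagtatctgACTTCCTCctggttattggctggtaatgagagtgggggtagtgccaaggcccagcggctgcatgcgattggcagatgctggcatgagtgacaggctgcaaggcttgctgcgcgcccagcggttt
Trim10 (chr17:36869324-36869573, plus strand): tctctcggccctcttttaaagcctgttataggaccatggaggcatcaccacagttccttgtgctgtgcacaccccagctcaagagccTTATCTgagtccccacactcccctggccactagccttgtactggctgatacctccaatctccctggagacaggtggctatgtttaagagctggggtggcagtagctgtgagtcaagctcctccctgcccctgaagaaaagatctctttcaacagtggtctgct

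Mapkapk2, a kinase below p38, had 102 and 99.1 against 73.3 and 71.7 CPM (log2 -0.47, SE 0.09, edgeR adjusted p = 0.0161). Vav1 had 76.4 and 76.5 against 58.8 and 50 CPM (log2 -0.49, SE 0.10, edgeR adjusted p = 0.023), and its word lies 11 bases before the start. Map3k3, a kinase of the MAP kinase cascades, had 50.1 and 47.2 against 38.2 and 32.4 CPM (log2 -0.46, SE 0.11, edgeR adjusted p = 0.039). All 3 were lower in both Plek2-/- libraries. Trim10, an erythroid ubiquitin ligase family member, had 1620 and 1690 against 1640 and 1610 CPM, which overlapped (log2 -0.03, SE 0.11).

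Adhesion, thrombosis and matrix genes fell in part. Of 30 adhesion and thrombosis genes, with a median of -0.40, 6 fell (20%, beside 2.7% over all genes). Among these falls were Plaur, the urokinase receptor, and F10, coagulation factor X. Plaur had 40.1 and 42 against 27.9 and 22.9 CPM (log2 -0.69, SE 0.12, edgeR adjusted p = 0.0106), and F10 fell by 0.81 on the log2 scale. Of 21 matrix and matrix-modifying genes, with a median of -0.39, 5 fell (23.8%, beside 2.7% over all genes). Adam8 and Adam19, membrane proteases, were among them with falls of 0.62 and 0.65. Leaving out Plek2-/- replicate 2 left 1 call in either list, leaving out either Plek2+/+ library left 0, and leaving out Plek2-/- replicate 1 gave 13 and 10.

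The 3 largest falls that the naming rule picked were matrix genes at low counts. Fam20c, a kinase of secreted proteins, had 4.07 and 3.02 against 1.54 and 0.937 CPM (2.9-fold lower, log2 -1.54, SE 0.31, edgeR adjusted p = 0.023). Emid1, an extracellular matrix protein, had 4.3 and 4.25 against 1.48 and 1.87 CPM (log2 -1.34, SE 0.25, edgeR adjusted p = 0.0169). Col5a3, a collagen V chain, had 4.54 and 3.84 against 1.95 and 1.51 CPM (log2 -1.28, SE 0.26, edgeR adjusted p = 0.0226). None of these genes overlapped between labels. Progenitors held 9.48, 17.5 and 19 CPM of them on average under Plek2+/+, more than the erythroblasts did.

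Further large falls lay in no single class. Mcam, an adhesion molecule of endothelium, had 3.15 and 4.92 against 1.89 and 1.51 CPM (log2 -1.24, SE 0.29, edgeR adjusted p = 0.0408). Acvrl1, a receptor for BMP9 known from endothelium, had 17.3 and 20 against 10.5 and 7.65 CPM (log2 -1.04, SE 0.17, edgeR adjusted p = 0.0095). Stk10, a kinase of lymphocytes that phosphorylates membrane linker proteins, had 81.4 and 70.8 against 46.7 and 35.9 CPM (log2 -0.88, SE 0.12, edgeR adjusted p = 0.0056). All were lower in both Plek2-/- libraries. Reln, a secreted glycoprotein best known from neuronal migration, had 111 and 114 against 71.3 and 64.7 CPM (log2 -0.72, SE 0.09, edgeR adjusted p = 0.00277). Ncf4, a subunit of the phagocyte oxidase, fell by 0.80 on the log2 scale, Mapk13 by 1.11 and the sulfotransferase gene Chst3 by 1.19.

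**Figure D4:**
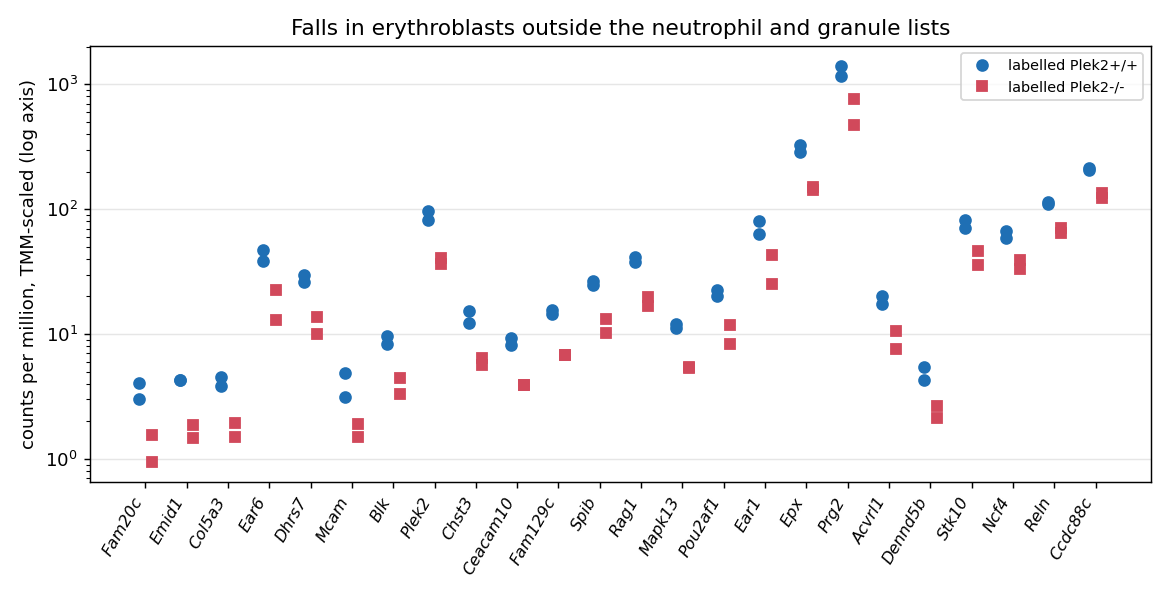
TMM-scaled CPM (vertical log axis) of the 24 named falls outside the neutrophil and primary granule lists, ordered by fold change with the largest at the left; blue circles are libraries labelled Plek2+/+ and red squares those labelled Plek2-/-. Levels run from near 1 CPM in Fam20c to above 1000 CPM in Prg2, and in each gene both red squares lie below both blue circles.

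Glycolysis and hypoxia genes had 6 falls and 0 rises among 29 (20.7%, beside 2.7% lower over all genes), with a median of -0.30. Slc16a3, the lactate exporter MCT4, had 45.2 and 45.4 against 28.2 and 21.3 CPM (log2 -0.88, SE 0.13, edgeR adjusted p = 0.00652). Pkm2, pyruvate kinase of non-erythroid cells, had 189 and 211 against 141 and 113 CPM (log2 -0.66, SE 0.11, edgeR adjusted p = 0.0111). Hk3 and Hk2, hexokinases, fell by 0.57 and 0.69 on the log2 scale, and the glucose transporter gene Slc2a3 by 0.45. The glucose transporter gene Slc2a1 had 6.9 and 7.83 against 4.73 and 3.69 CPM, at an edgeR adjusted p of 0.053. Hk3 is also a primary granule gene. The calls became 3 without Plek2-/- replicate 2, 0 without either Plek2+/+ library and 12 without Plek2-/- replicate 1.

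Lists of inflammation, interferon and lipid genes held few calls, where 2.85% of all autosomal genes tested were called. Of 33 inflammation and NF-kB genes, Ptgs2 rose and Il4ra, the interleukin-4 receptor, fell by 0.53 on the log2 scale (6.06% called; median -0.27). Of 41 interferon response genes 2 fell, Ifitm1 and Ifitm2, by 0.93 and 0.46, and the median was -0.09. Without Plek2-/- replicate 1, 14 interferon genes were called lower and the median was -0.32. Without Plek2-/- replicate 2, 0 were called and the median was 0.09. Mvd, an enzyme of cholesterol synthesis, fell by 0.90, in a list of 26 with a median of -0.04. Of 34 PI3K, Akt and phosphoinositide genes 2 fell, Plek2 and Pik3cd, the leukocyte PI3-kinase, which fell by 0.47.

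Housekeeping lists had small medians and no call. Nuclear-encoded respiratory chain genes had a median of 0.12 over 39, with 36 positive, 4 at an unadjusted p below 0.05 and 0 called by edgeR, DESeq2 or limma-voom. Proteasome genes had 0.10 over 35, with 34 positive, 2 at an unadjusted p below 0.05 and 0 called by any of these tools. Cytosolic ribosomal protein genes had 0.10 over 68 and S phase genes 0.10 over 35, with 2 and 4 at an unadjusted p below 0.05 and 0 called by any of these tools. Genes of G2 and M phase had a median of 0.0064 over 32, with 0 at an unadjusted p below 0.05 and 0 called by any of these tools. The medians of the first 4 stayed positive under each scaling tried, between 0.07 and 0.12, and that of G2 and M phase did not keep its sign. Mki67, the proliferation marker, had 7950 and 9690 against 9170 and 10300 CPM (log2 0.14, SE 0.15).

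The same genes were then read in progenitors, whose 4 libraries are separate from those of the erythroblasts. Of the 318 falls, 244 had a positive value there, 126 were called higher and 3 lower, where 4.93% of autosomal genes were called, 4.57% higher and 0.356% lower. The difference between populations was called for 250 of the 318 (edgeR interaction, which called 5.66% of all genes). The falls were chosen in the erythroblast libraries that enter this difference, so nothing is read from that share. Outside the neutrophil and granule lists these counts were 219 positive, 103 called higher and 224 with a called difference, of 290. The median of all falls was -0.62 in erythroblasts and 0.25 in progenitors. Plek2 itself was the most negative of the named genes, with a difference of -3.66 log2 units (edgeR adjusted p = 6.34e-05). Its level in progenitors was low, at 29 and 21 reads under Plek2+/+ and 130 and 173 under Plek2-/-.

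Values of single genes in both populations follow, and lists were not tested against each other. Of eosinophil genes, Epx had -1.07 in erythroblasts and -1.11 in progenitors (difference 0.07, SE 0.31, edgeR adjusted p = 0.93), and Prg2 had -1.06 and -0.81 (difference -0.22, edgeR adjusted p = 0.85). Of B cell genes, Spib had -1.14 and 0.06 (difference -1.17, SE 0.26, edgeR adjusted p = 0.0181), and Blk had -1.21 and 0.13 (difference -1.31, SE 0.28, edgeR adjusted p = 0.0145). The median of the 24 pan-leukocyte genes was -0.42 in erythroblasts and 0.29 in progenitors, where 10 were called higher. Among leukocyte and actin genes, Itgam had -0.62 and 1.20 (difference -1.78, edgeR adjusted p = 0.000345), and Gsn had -0.56 and 1.02 (difference -1.54, edgeR adjusted p = 0.000407). Dock2, Coro1a and Plcg2 had 0.05, 0.17 and 0.14 in progenitors, and Pik3cd had -0.02. Reln fell in both, by 0.72 and 0.78.

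Of the 18 rises 13 were positive and 6 called higher in progenitors, and 6 had a called difference. Igj had 1.80 and 1.37 (difference 0.46, SE 0.31, edgeR adjusted p = 0.482), and Galc had 0.89 and 0.90 (difference 0.02, SE 0.20, edgeR adjusted p = 0.976). Chac1 and Ptgs2 were also called higher there, at 1.66 and 2.24. By contrast Lgmn had 1.04 and 0.19 (difference 0.88, SE 0.12, edgeR adjusted p = 0.000769), and Cdkn1a had 0.92 and -0.13 (difference 1.09, SE 0.24, edgeR adjusted p = 0.0157). A difference that missed the threshold does not show that the populations responded alike.

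**Figure D5:**
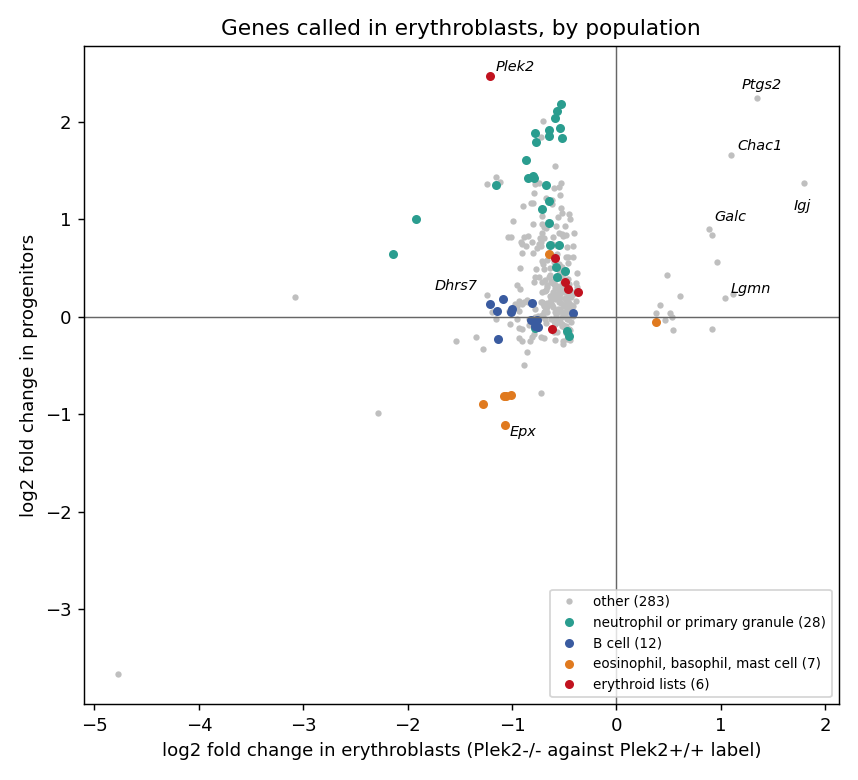
Log2 fold change of the 336 genes called in erythroblasts (horizontal axis) against the log2 fold change of the same genes in progenitors (vertical axis), coloured by gene list with the number of genes in brackets. Neutrophil and granule genes lie mostly above 0 in progenitors, B cell genes lie near 0 and 5 of 7 eosinophil, basophil and mast cell genes lie well below 0, and the leftmost point is Serpina11, whose position depends on counts of 1 and 0.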

How the data were processed

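RNA was sequenced from 8 libraries. Raw read counts per gene symbol were deposited by the authors, and per the submitters' processing notes cutadapt 1.13, STAR 2.5.2a, HTSeq 0.6.1pl and DESeq2 1.14.1 were used with mm10. The sources used here do not give the annotation or the use of strand. A second table deposited by the authors holds size-factor-scaled counts (a signal unit), used only to read those factors. Genes were placed by GENCODE vM21 (GRCm38).

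The counts of the 4 erythroblast libraries (16760897 to 21168532 per library) were filtered with filterByExpr, scaled by TMM and tested with the quasi-likelihood test of edgeR 4.0.16 in R 4.3.3, with Benjamini-Hochberg adjustment over 12241 genes and a threshold of 0.05. CPM are TMM-scaled and SE is the standard error of the log2 fold change. The difference between populations is the interaction in a fit of all 8 libraries. On simulated counts the comparison recovered 74% of 1.5-fold and 98% of 2-fold changes, and 2.82% of calls were unchanged genes. Changes were simulated only in better expressed genes, with the variation between replicates set by expression level alone. These shares therefore do not carry over to genes at low counts or to genes that vary more. Replicates of a label differed by more than sampling noise (chi-square per degree of freedom 8.41 and 9.09).

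Genes named were Plek2, the autosomal rises, the 20 largest falls and the 10 falls with the lowest p outside the neutrophil and primary granule lists (mean count of at least 20, labels not overlapping), 3 called genes per list or, with none, the 2 most abundant, and members of lists described one by one. Symbols of predicted genes were left out. Some genes and 1 list are not reported here. Members and lists were chosen with earlier results of these data known, and promoter words after the values were seen. Alternatives were other scalings and filters, DESeq2 1.42.0, limma-voom (limma 3.58.1), all 8 libraries in 1 fit, a replicate block and each library left out. Figures were drawn with matplotlib 3.10.9.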

Additional observations from a re-analysis of the deposited data

Results flagged for a closer look

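For 52 of 109 named genes the effect of the label differed between erythroblasts and progenitors by the edgeR interaction test (adjusted p from 6.34e-05 to 0.0494). Values are the log2 fold change in erythroblasts minus that in progenitors. In 46 genes it was negative and in 6 positive, and 41 genes were lower in erythroblasts with a positive value in progenitors. The same test called 5.66% of all autosomal genes. Most named genes were chosen by their values in the erythroblast libraries that enter this difference, so nothing is read from these counts.

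Plek2 had the most negative difference, -3.66. Among neutrophil and granule genes it was -2.63 in Lcn2, -2.45 in Ifitm6, -2.24 in Mmp9, -1.24 in Serpinb1a, -0.95 in Hk3 and -0.63 in Prss57. Among B cell genes it was -1.31 in Blk, -1.24 in Pou2af1, -1.17 in Spib and -0.87 in Rag1, and in Fam129c -1.09.

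Leukocyte, signalling and cytoskeletal genes had -1.78 in Itgam, -1.58 in Plaur, -1.54 in Gsn, -1.42 in Ncf4, -1.0 in Stk10, -0.99 in Prkcb, -0.93 in Capg, -0.91 in Dok3, -0.83 in Sfpi1, -0.82 in Cotl1 and -0.81 in Plcg2. Smaller differences were -0.77 in Coro1a, -0.77 in Rac2, -0.72 in Plek, -0.67 in Ifitm2, -0.64 in Il4ra and -0.49 in Dock2, and Ifitm1 had -0.96.

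Genes of erythroid lists had -1.16 in Glrx, -0.81 in Cd36, -0.71 in Stat3, -0.59 in Ptpn6 and -0.45 in Alas1. Further negative values were -2.57 in Mcam, -2.54 in Ceacam10, -2.45 in Mapk13, -1.83 in Acvrl1, -1.80 in Fas, -1.66 in Slc16a3, -1.42 in Dhrs7, -1.21 in Chst3, -1.10 in Emid1, -0.76 in Pkm2 and -0.70 in Ccdc88c. The positive differences were 1.09 in Cdkn1a, 0.88 in Lgmn, 0.70 in Gmpr, 0.57 in Dph5, 0.50 in Zc3h14 and 0.47 in Il1rl1.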

How the results depend on the processing

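The 336 calls (18 higher, 318 lower) became 220 with library totals (205 lower), 814 without a filter (83 higher, 731 lower) and 526 with the authors' size factors, an alternative chosen after seeing the data (29 higher, 497 lower). Leaving out 1 library gave 19 to 963 calls, 2 to 93 higher and 17 to 870 lower, and 18 to 329 of the 336 were among them. DESeq2 kept 296, limma-voom 334 and the fit of all 8 libraries 301, and the cause of these shifts was not tested. Of 79 called named genes, 44 stayed called without Plek2-/- replicate 2, and 20 and 15 without Plek2+/+ replicates 1 and 2. The 6 cell type lists with a smaller share in both Plek2-/- libraries became 6 to 10 with 1 library left out, 10 without Plek2+/+ replicate 2. The 52 population differences became 35 to 61 with 1 library left out. No named gene's call changed direction.

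The labels do not say what replicates of the same number share beyond that number. The correlation of their deviations was 0.0728 over 12241 genes, and whether they share a batch was not tested. With a replicate block 555 genes were called (47 higher, 508 lower), the 336 among them, and the population differences numbered 50. With 2 libraries per label the exact permutation test cannot go below 0.333, and at 3 counts per library levels under 0.142 to 0.179 CPM cannot be told from 0.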
